A study of Bombyx mori with 9 samples.

Results

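Expression in the silk gland of the domestic silkworm, Bombyx mori, was followed along gland weight over all 9 libraries of the series. The libraries came from 3 strains, A306, XH and A798, with 3 libraries each. All larvae were kept at the same temperature and humidity and sampled on day 5 of instar 5, the last larval stage. For every library 2 gland weights were stated, and their mean served as its place on the weight axis. These means were 0.6645, 0.694 and 0.7045 g for the A306 libraries, 0.9735, 0.965 and 0.982 g for the XH libraries, and 1.315, 1.271 and 1.2555 g for the A798 libraries. The weights thus fell in 3 separate groups, 1 per strain, with a mean of 0.688 ± 0.0207 g for A306, of 0.974 ± 0.0085 g for XH, and of 1.28 ± 0.0309 g for A798 (SD, n = 3 each). XH lay 48.2% of the way along the weight axis between A306 and A798. With 1 strain at each weight, gland weight and every other difference between the strains cannot be told apart. The labels do not state whether replicate libraries were made from different larvae, so the p-values measure only the spread between these samples.

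Of 15745 features measured, 4636 had at least 1 FPKM in at least 3 libraries and were tested. FPKM scales the fragments of a gene to its length and to all fragments mapped in that library. Each feature was asked in how far its log2 level, centred on the median of the library, followed a line along gland weight, and whether its 9 libraries stood in the order of the strains' weights. A feature was called ordered when all 3 A306 values lay below all 3 XH values and these below all 3 A798 values (rising with weight), or the reverse (falling with weight). Of the 4636 tested features, 301 (6.49%) were ordered along weight.

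The silk gland is a paired tube of giant secretory cells that copy their genome many times without dividing and that take up much of the late larva's body. Its posterior part secretes fibroin, an assembly of a heavy chain, a light chain and fibrohexamerin, and its middle part secretes the sericin glue. In the last instar the gland grows fast and its ribosomes, endoplasmic reticulum and secretory vesicles are given over to silk protein synthesis, fed by amino acids and sugars from the haemolymph. The haemolymph proteins themselves, among them storage proteins and 30K lipoproteins, are made mainly by the fat body, which also makes the antibacterial peptides gloverin, attacin and lebocin after infection.

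The silk genes showed the tissue: the summed level of the 3 silk structural genes was 28550 to 28750 FPKM for A306, 37090 to 38850 FPKM for XH, and 24250 to 25640 FPKM for A798. Markers of other cell types also differed between strains. The 19 fat body and haemolymph genes, none at 0 in every library, summed to 70.9 to 77.3 FPKM for A306, 1800 to 1883 FPKM for XH, and 621.6 to 641.5 FPKM for A798. The 5 haemocyte genes summed to 3.28 to 4.39 FPKM for A306, 10.1 to 12.5 FPKM for XH, and 2.73 to 4.22 FPKM for A798. The 5 muscle genes summed to 71.5 to 79.5 FPKM for A306, 65.3 to 71.8 FPKM for XH, and 36.6 to 41.1 FPKM for A798. Most of this sum was actin A1, at a mean of 72.9 FPKM in A306, 62.0 FPKM in XH and 38.2 FPKM in A798. By contrast, MLC-2 and muscular protein 20 had their highest means in XH, at 3.41 and 2.52 FPKM. The 178 cuticle genes, 93 of them at 0 in every library, summed to 12110 to 13470 FPKM for A306, 4280 to 4736 FPKM for XH, and 3482 to 3640 FPKM for A798. Most of the cuticle sum was BGIBMGA005303, at a mean of 12461 FPKM in A306, 3681 FPKM in XH and 3180 FPKM in A798. Of the 25 tested cuticle genes, 7 had XH highest with the strains separated, against 5.78% of all features. In 1, BMORCPH10, XH was lowest, against 6.73%. These counts held on the centred scale only, and in each of the other 6 scalings they were 5 and 0. BMORCPH10 was at 0 in every XH library and at 0.55, 0 and 0 FPKM in A798. BMORCPR32 and BMORCPG17, both among the 7, passed the filter on low values only through XH. None of the 3 midgut genes exceeded 0.22 FPKM. In bulk tissue, fewer cells of a type and less RNA per cell cannot be told apart. The library median over the tested features also followed the weights, at 2.74 to 2.78 for A306, 2.66 to 2.69 for XH, and 2.40 to 2.46 for A798 on the log2(FPKM + 1) scale. Centring removed this shift, which moved the median slope of all features to 0.04 log2 per g, against -0.51 as deposited. A798 replicate 3 also held 19.6% ribosomal RNA, against 5.05% to 11.3% in the other 8 libraries.

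Along weight, 800 of 4636 features (17.3%) had a called slope in limma, 414 (8.93%) higher and 386 (8.33%) lower in heavier glands, at an adjusted p below 0.05. The split depended on the scaling, with 242 higher and 1211 lower as deposited. It was 259 and 828 with no filter on low values. In the fit on strain means, 1456 features (31.4%) had a called departure of XH from the line drawn between A306 and A798, with 645 (13.9%) above it and 811 (17.5%) below it, and 2126 features (45.9%) differed among the strains in any way. Between pairs of strains, 1592 features (34.3%) differed between A306 and XH, 1268 (27.4%) between XH and A798, and 1593 (34.4%) between A306 and A798. Of the 800 slope calls, 309 also had a called departure and 136 had an XH mean outside the range of the A306 and A798 means, so a called slope did not by itself mean that the strains stood in the order of weight. The slope counts also leaned on single libraries: without A306 replicate 1 they were 273 higher and 190 lower. The lower count was 206 without A306 replicate 2, 183 without A306 replicate 3 and 239 without A798 replicate 2.

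Full separation of the 3 strains was found for 881 features (19%), and these split over all 6 possible strain orders. The rising order A306, XH, A798 held 175 features (3.77% of those tested) and the falling order 126 (2.72%). Together they made up 34.2% of the separated features, for 2 of the 6 orders. XH was outermost in the other 580: it was highest in 268 (5.78%), of which 189 had A306 lowest, and lowest in 312 (6.73%), of which 188 had A306 highest. In 24 of these 188, both XH and A798 were at 0, and in 10 of the 189 both A306 and A798 were. The order of the 2 strains at 0 then came from the centring alone. The upper quartile scaling gave 113 features with XH lowest and A306 highest, and 169 with XH highest and A306 lowest. Both neighbouring steps, A306 against XH and XH against A798, were called in the same direction in 134 features (2.89%), 80 rising (1.73%) and 54 falling (1.16%), and all 134 were among the ordered ones. The balance of rising and falling features depended on how the libraries were brought to one scale. As deposited, 66 features rose in order and 417 fell. Over the 7 scalings tried, the weight orders took 33.9% to 50.7% of the separated features, and 60 rising and 82 falling features kept their order in all 7.

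**Figure D1:**
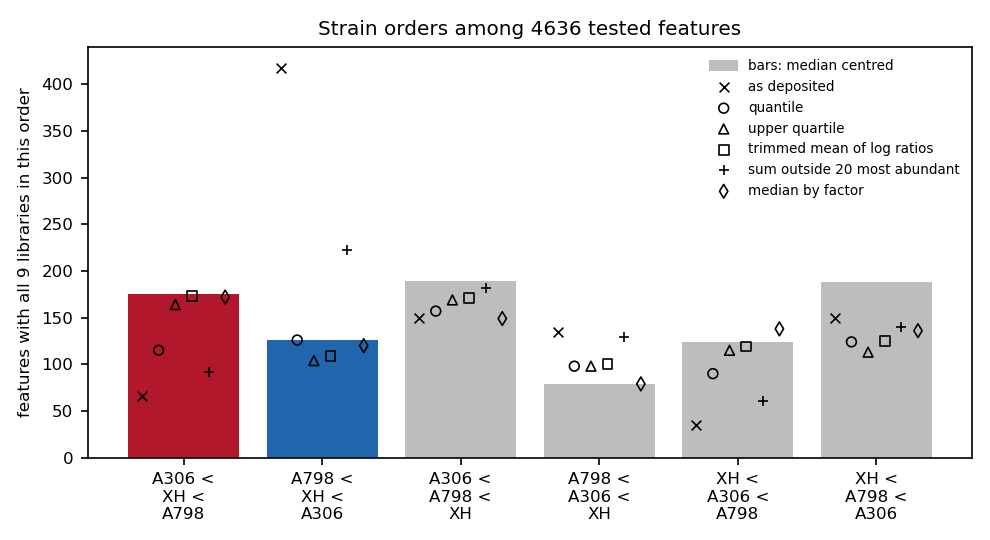
Number of tested features (vertical axis) whose 9 libraries fall in each of the 6 strain orders (horizontal axis, lowest strain first). Bars show median-centred values, red for rising and blue for falling with gland weight and grey for orders with XH outermost, and symbols show the other 6 scalings; as deposited, the falling order holds 417 features and the rising order 66.

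The ordered genes are described from here on by their values. Their order was read from these same 9 libraries, so their slopes and p-values describe them and are no separate evidence. On the centred scale, the median difference between A306 and A798 was 1.19 log2 over the 175 rising features and 0.645 log2 over the 126 falling ones. At least 2-fold differences were found in 99 rising and 38 falling features. The library medians were 2.74 to 2.78 in A306 and 2.40 to 2.46 in A798, so centring lifted A798 against A306. That shift adds to each rise and takes from each fall, so the contrast holds for the centred scale only. A strain was also at 0 in 30 of the rising and 1 of the falling features. Of the 301 ordered features 67 had a name (22.3%), against 12.6% of all tested features. Their median level was 14.8 FPKM over the libraries, against 5.44 FPKM for all tested features. Over all 881 separated features, whatever their order, 20% had a name and the median level was 11.6 FPKM.

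The steepest rises among the named genes were in a sugar and a lipid enzyme. BGIBMGA005711, which the deposited annotation matches to a glucose dehydrogenase that oxidises glucose with a flavin cofactor, was at 0.61, 0.54 and 0.68 FPKM in A306, at 2.69, 2.86 and 2.35 FPKM in XH, and at 227, 208 and 199 FPKM in A798. Most of its range lay between XH and A798: XH stood 17.1% of the way up, 2.29 ± 0.08 log2 below the line (SE, adjusted p = 2.31e-07), and the slope was 12.46 ± 1.54 log2 per g. BMSUC1, a beta-fructofuranosidase that splits sucrose, was among the abundant transcripts, at 1174, 1160 and 1177 FPKM in A306, 1709, 1727 and 1738 FPKM in XH, and 3445, 3456 and 3351 FPKM in A798. Its libraries were tight within each strain, the A798 mean was 2.92 times the A306 mean, and the slope was 3.15 ± 0.20 log2 per g (adjusted p = 6.17e-05). XH again lay below the line, by 0.26 ± 0.02 log2.

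BGIBMGA002524, matched to alkylglycerol monooxygenase, an enzyme that cleaves ether lipids, was nearly silent in the lightest glands. It was at 0.22, 0.09 and 0.42 FPKM in A306, 6.03, 6.34 and 8.73 FPKM in XH, and 17.4, 18.2 and 18.1 FPKM in A798, with XH 65.1% of the way up. Acid lipase-1 (BGIBMGA005695), which frees fatty acids, was in the same order at lower levels, at 0.04, 0.16 and 0.04 FPKM in A306, 2.85, 2.73 and 2.87 FPKM in XH, and 3.6, 4.79 and 4.59 FPKM in A798. Glucose-6-phosphate isomerase (BGIBMGA004221), a step of glycolysis, was an ordered gene only after centring. Its deposited values were 54.1, 54.7 and 52.4 FPKM in A306, 128, 124 and 127 FPKM in XH, and 113, 117 and 110 FPKM in A798, so XH was highest as deposited, and the gene kept the rising order in 3 of 7 scalings.

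Of the 22 tested genes of carbohydrate metabolism, 4 were in the rising and 2 in the falling order, with 5 slopes called higher and 2 lower. Over all tested features 3.77% and 2.72% were so ordered. The list's median slope was 0.35 log2 per g, but -0.20 on the deposited scale, so the list as a whole had no direction that held across scalings. Its falling members were fructose-1,6-bisphosphatase (BGIBMGA001399), which works in the direction of glucose synthesis, and the NADP-dependent isocitrate dehydrogenase (BGIBMGA007586), which supplies NADPH. The phosphatase was at 37.1, 35.7 and 35.5 FPKM in A306, 27.8, 30.2 and 32.2 FPKM in XH, and 15.8, 15.6 and 13.5 FPKM in A798. Its step was larger between XH and A798, and XH lay 0.26 ± 0.06 log2 above the line (adjusted p = 0.00944). Isocitrate dehydrogenase was at 242, 237 and 241 FPKM in A306, 195, 186 and 189 FPKM in XH, and 126, 141 and 124 FPKM in A798.

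Among rising genes of the translation machinery, translation elongation factor 2 (TEF2), which moves the ribosome along the message, stood out. It was at 443, 326 and 371 FPKM in A306, 835, 763 and 938 FPKM in XH, and 1388, 1513 and 1157 FPKM in A798, a slope of 3.61 ± 0.26 log2 per g (adjusted p = 0.00011). The strains did not overlap, and XH stood 57.7% of the way up. RPS26, a protein of the small ribosomal subunit, was at 5394, 5457 and 5268 FPKM in A306, 5653, 5588 and 5744 FPKM in XH, and 7174, 7307 and 7218 FPKM in A798. Its rise lay mostly between XH and A798. Both genes kept their order in all 7 scalings.

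Several other rising genes of these groups did not share that stability, such as RPL32 and RPS3, which kept their order in 4 and 5 of 7 scalings. Of 42 tested cytosolic ribosomal protein genes, 7 were in the rising order (RPL32, RPS14, RPSA, RPS26, RPL8, RPS3 and RPL9) and 1, RPL20, in the falling order, where 3.77% and 2.72% of all features were. By slope 11 were called higher and 1 lower, against 8.93% and 8.33% of all features. As deposited the same list gave 1 slope higher and 19 lower. Its median slope was 0.27 log2 per g centred and -0.28 log2 per g as deposited, where all features had 0.04 and -0.51. The sign of the list's median slope was thus set by the scaling. Of 20 translation factors, 4 slopes were higher and 2 lower after centring, against the same 8.93% and 8.33%. As deposited 2 were higher and 11 lower, where all 4636 features gave 242 and 1211. Elongation factor 1 gamma (EF-1G), part of the complex that recharges the factor carrying tRNA to the ribosome, was at 4085, 4104 and 4173 FPKM in A306, 4124, 4076 and 4190 FPKM in XH, and 4706, 4888 and 4719 FPKM in A798. Its A306 and XH libraries overlapped as deposited and were apart only after centring. RPL20 was in the falling order in all 7 scalings: it was at 32.9, 29.2 and 31.8 FPKM in A306, 22.1, 24.3 and 25.6 FPKM in XH, and 18.2, 17 and 15.5 FPKM in A798.

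Further rising genes were the G subunit of the vacuolar proton pump (BGIBMGA013678), which acidifies vesicles and the gland lumen, the small heat shock protein HSP20.4, which keeps unfolded proteins soluble, and the cuticle protein BMORCPR23. The pump subunit was at 286, 305 and 272 FPKM in A306, 338, 365 and 333 FPKM in XH, and 465, 475 and 466 FPKM in A798. The pump's B subunit (BGIBMGA002241) kept the rising order in 4 of 7 scalings, while the F subunit was lowest in XH and the proteolipid subunit overlapped between strains, so 2 of 4 tested subunits were ordered. HSP20.4 was at 65.8, 57.1 and 57.4 FPKM in A306, 131, 121 and 125 FPKM in XH, and 146, 159 and 142 FPKM in A798, with the larger step between A306 and XH. BMORCPR23 was at 0, 0 and 1.1 FPKM in A306, 4.31, 5.81 and 5.08 FPKM in XH, and 6.16, 6.75 and 21.1 FPKM in A798, where replicate 3 alone was above the other libraries by a wide margin. It was 1 of 25 tested cuticle genes in the rising order, close to the 3.77% of all features, and none was in the falling order.

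**Figure D2:**
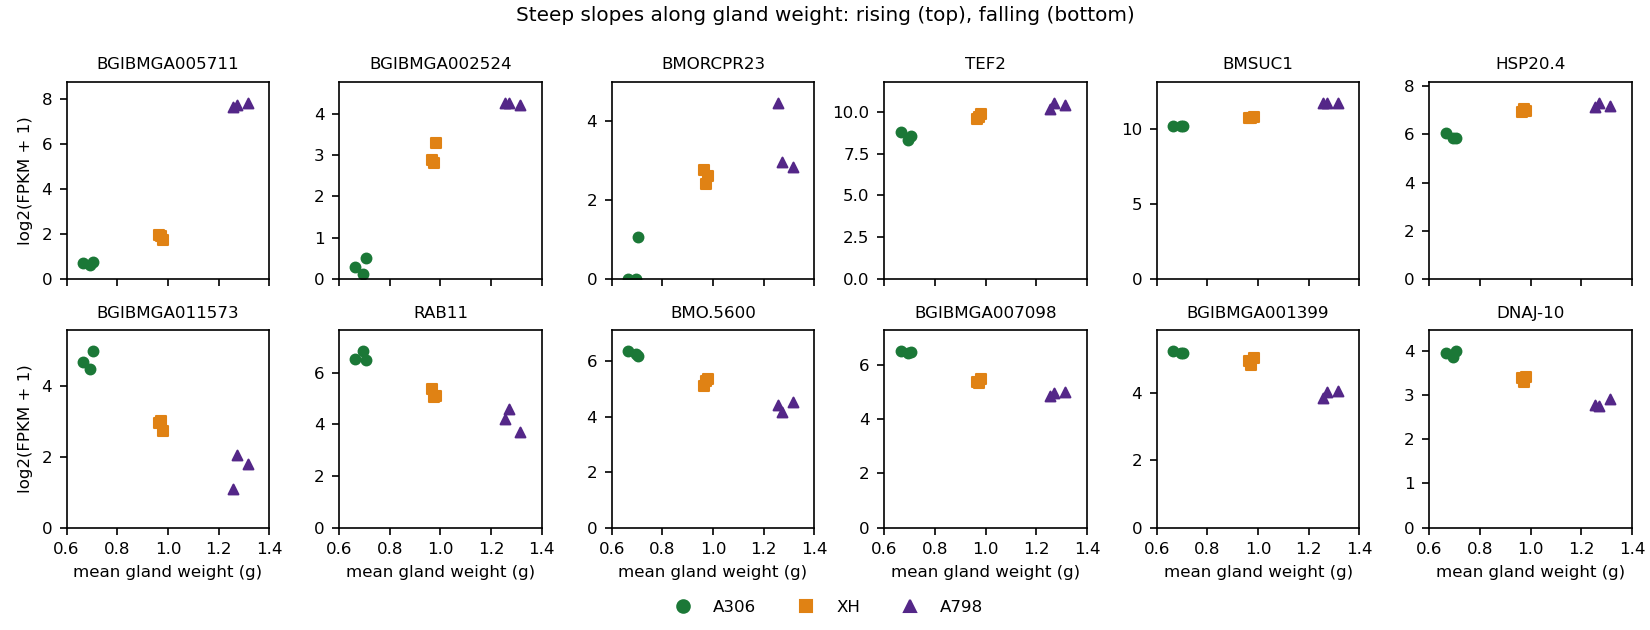
Level of the 6 named ordered genes with the steepest rising slopes (top) and 6 of those with the steepest falling slopes (bottom) on the deposited log2(FPKM + 1) scale, against the mean gland weight of each library in g. Each point is 1 library, coloured by strain; in all 12 panels the strains do not overlap, and BGIBMGA005711 stays low in A306 and XH and stands high in A798.

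The steepest falls were in genes of several functions. BGIBMGA011573, a Kazal-type inhibitor of serine proteases, was at 24.9, 21.3 and 30.7 FPKM in A306, 7.16, 6.73 and 5.69 FPKM in XH, and 2.45, 3.18 and 1.13 FPKM in A798. The A306 mean was 11.4 times the A798 mean, and the slope was -4.57 ± 0.52 log2 per g (adjusted p = 0.000867). RAB11, a small GTPase of recycling endosomes, was at 91.7, 113 and 90 FPKM in A306, 32.2, 40.2 and 33.5 FPKM in XH, and 12.1, 22.9 and 17.6 FPKM in A798, with a slope of -3.60 ± 0.38 log2 per g. Of the 20 tested vesicle transport genes only RAB11 and RAB7 were in the falling order and none in the rising order, against 2.72% and 3.77% of all features. RAB7, a GTPase of late endosomes, changed far less and had an adjusted p of 0.0767.

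Metabolic genes that fell were BMO.5600, an acireductone dioxygenase of methionine salvage, and BGIBMGA007098, an NADP-dependent oxidoreductase. BMO.5600 was at 80.4, 75.4 and 71 FPKM in A306, 38, 33.2 and 39.8 FPKM in XH, and 22.2, 17 and 20.3 FPKM in A798. It fell at each step, with XH 59.5% of the way from A306 to A798. BGIBMGA007098 was at 90.3, 86.8 and 87.8 FPKM in A306, 39.7, 41.1 and 43.7 FPKM in XH, and 31.1, 30.8 and 28.1 FPKM in A798. Most of its fall lay between A306 and XH, and XH was 0.41 ± 0.04 log2 below the line (adjusted p = 0.00011).

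Several folding factors fell with weight. Of 20 tested heat shock proteins and chaperones, 5 were in the falling order (HSP90, DNAJ-10, the chaperonin subunits alpha and zeta, and the GrpE homolog BMO.5081), against 2.72% of all features, and 1, HSP20.4, in the rising order. By slope, 5 were called lower and 3 higher, against 8.33% and 8.93% of all features. The list's median slope was -0.41 log2 per g, against 0.04 for all features, and below 0 in each of the 7 scalings. That was not particular to this list: those for vesicle transport and for the endoplasmic reticulum, among others, were also below 0 in each. As deposited, the median of all features was itself -0.51 log2 per g. HSP90, which completes the folding of many signalling proteins, was at 545, 511 and 523 FPKM in A306, 395, 399 and 410 FPKM in XH, and 258, 258 and 247 FPKM in A798. Its XH mean lay 0.04 ± 0.02 log2 from the line, with no departure called (adjusted p = 0.194). The chaperonin subunits belong to the ring that folds actin and tubulin. The zeta subunit (BGIBMGA013116) was at 112, 104 and 108 FPKM in A306, 73.2, 73.8 and 75.3 FPKM in XH, and 54.1, 53.2 and 51.7 FPKM in A798. The alpha subunit (BGIBMGA006263) was at 79.7, 82 and 84.4 FPKM in A306, 66.3, 66 and 65.8 FPKM in XH, and 40.4, 46.1 and 41.6 FPKM in A798. The co-chaperone DNAJ-10, which hands proteins to the HSP70 family, was at 14.4, 13.5 and 14.8 FPKM in A306, 8.78, 9.36 and 9.64 FPKM in XH, and 6.45, 5.67 and 5.86 FPKM in A798. FKBP45, a prolyl isomerase outside that list, had 186, 176 and 182 FPKM in A306, 116, 115 and 120 FPKM in XH, and 85.8, 82.2 and 81.5 FPKM in A798. These 5 genes fell at both steps, and each kept its order in all 7 scalings.

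The signal sequence receptor (BGIBMGA011599), which sits at the channel through which secreted proteins enter the endoplasmic reticulum, was at 1006, 984 and 995 FPKM in A306, 797, 811 and 846 FPKM in XH, and 574, 566 and 550 FPKM in A798. It was the 1 ordered gene of 10 tested for entry into and folding in the endoplasmic reticulum, where 6.49% of all features were ordered. In that list 3 slopes were called lower and none higher, against 8.33% and 8.93% of all features. CDC2, the kinase that drives the cell cycle, was the 1 ordered gene of 19 for DNA replication and the cell cycle, again against 6.49%. It was at 8.31, 8.53 and 9.42 FPKM in A306, 6.28, 5.48 and 6.72 FPKM in XH, and 3.38, 4.29 and 3.92 FPKM in A798. In the proteasome and ubiquitin list, 2 of 26 genes fell in order, the regulatory particle subunits BGIBMGA005560 and BGIBMGA005994, and 2 were in the rising order, against 2.72% and 3.77% of all features. One of these was the synoviolin-like ubiquitin ligase BGIBMGA004940, which marks misfolded proteins of the endoplasmic reticulum for breakdown, at 39.5, 34.7 and 32.8 FPKM in A306, 46.1, 42.5 and 43.5 FPKM in XH, and 46.3, 48.6 and 48 FPKM in A798. The 10 steepest named falling genes all kept their order in 7 of 7 scalings, as did 8 of the 10 steepest rising ones; PGRP-S1 and glucose-6-phosphate isomerase did not.

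Several immune effectors were ordered along weight. Of 21 such genes, 8 passed the filter on low values, and of these 5 were in the rising order and 7 had slopes called higher, against 3.77% and 8.93% of all features. Since a gene at 0 in A306 passes the filter only through XH and A798, these counts describe the 8 and not all 21. The gloverins, antibacterial peptides of the Lepidoptera, were listed at 0 in A306. GLV3 was at 0 in all 3 A306 libraries, at 1.36, 1.49 and 1.31 FPKM in XH, and at 3.89, 4.77 and 3.59 FPKM in A798. BGLOV2 was at 0 in all 3 A306 libraries, at 1, 0.88 and 0.9 FPKM in XH, and at 2.04, 4.16 and 4.23 FPKM in A798. Lebocin (LEB1/2), a proline-rich antibacterial peptide, was at 0, 0.19 and 0 FPKM in A306, 2.53, 0.99 and 1.83 FPKM in XH, and 4.88, 4.62 and 5 FPKM in A798. These 3 genes kept the rising order in all 7 scalings.

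In 2 members with higher levels, XH and A798 stood close together. PGRP-S1, a recognition protein for bacterial peptidoglycan, was at 5.14, 9.45 and 9.61 FPKM in A306, 18.2, 18 and 17.1 FPKM in XH, and 20.1, 19.8 and 15.8 FPKM in A798, with the XH and A798 libraries overlapping as deposited. Lysozyme (BGIBMGA010439), which breaks bacterial cell walls, was at 1.52, 2.23 and 0 FPKM in A306, 23.4, 24.9 and 20.2 FPKM in XH, and 21.6, 20.7 and 11.9 FPKM in A798, so XH lay 1.95 log2 above the line (adjusted p = 0.00396). Attacin and the gloverin BGLOV1 also had called slopes, at 3.26 and 2.73 log2 per g, with A306 at 0 throughout. BGLOV1 was also at 0 in XH replicate 3, and its order held in 1 of 7 scalings. IRP1, a putative defence protein, was the exception, with a slope of -0.25 log2 per g (adjusted p = 0.851). The number of called slopes was 7 of 8 in each scaling, while the number in order ran from 3 to 5. The fat body genes given above were also lowest in A306 but highest in XH, and their part in the immune values was not tested.

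**Figure D3:**
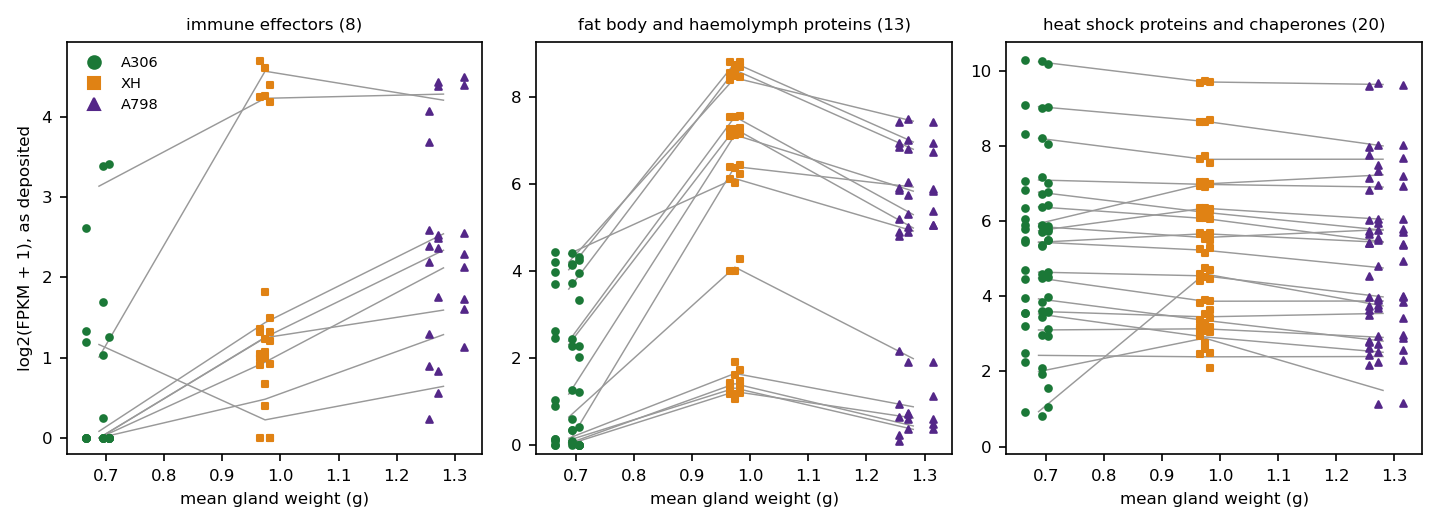
Level of the tested members of 3 gene lists against mean gland weight in g, on the deposited log2(FPKM + 1) scale. Points are libraries coloured by strain and grey lines join the strain means of a gene. Of the immune effectors, 7 of 8 have their lowest mean in A306, and all 13 tested fat body and haemolymph genes have their highest mean in XH. Some members of both lists passed the filter on low values only through the strains where they are high. The chaperones have a median slope of -0.95 log2 per g on this scale, against -0.51 for all tested features.

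Fat body and haemolymph genes did not follow weight. None of the 13 tested members was ordered along it, 12 had XH highest with the strains separated, against 5.78% of all features, and in all 13 XH lay above the line, against 13.9%. BGIBMGA004404, LSP-T and BGIBMGA008164 were below 1 FPKM in every A306 and A798 library and passed the filter only through XH. For them a highest XH level was fixed by the filter, and the counts describe the 13 and not all 19 members. SP3, a storage protein, was at 4.51, 4.44 and 3.84 FPKM in A306, 187, 184 and 188 FPKM in XH, and 40.6, 38.9 and 35.8 FPKM in A798. XH was 3.68 ± 0.05 log2 above the line (adjusted p = 1.32e-09), while the slope over all libraries was not called (adjusted p = 0.177). The 30K lipoprotein BMO.4927 was at 1.06, 1.41 and 1.33 FPKM in A306, 139, 138 and 141 FPKM in XH, and 56.9, 53 and 59.1 FPKM in A798. It was 1 of 3 members with a called slope, at an adjusted p of 0.0464, although XH was its highest strain.

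The silk genes themselves were not ordered along weight. Fibroin heavy chain (BGIBMGA005111) was at 262, 267 and 274 FPKM in A306, 1518, 1484 and 1437 FPKM in XH, and 828, 841 and 893 FPKM in A798. Fibroin light chain (FIBL) was at 23927, 23698 and 23592 FPKM in A306, 29754, 30496 and 31390 FPKM in XH, and 19988, 20757 and 19575 FPKM in A798. Fibrohexamerin (P25), which holds the fibroin complex together, was at 4565, 4603 and 4684 FPKM in A306, 5818, 5897 and 6021 FPKM in XH, and 3763, 4042 and 3780 FPKM in A798. All 3 genes were highest in XH, the strain of middle gland weight, and lay above the line by 1.59 ± 0.05 log2 for the heavy chain, 0.41 ± 0.02 log2 for the light chain and 0.41 ± 0.03 log2 for fibrohexamerin. No slope was called, with adjusted p-values of 0.0645, 0.807 and 0.86. The 3 factors known to bind silk gene promoters, SGF1, SGF3 and FMBP-1, had no full separation of the 3 strains and no called slope, although the slope of SGF1 was called higher in 4 of the 7 scalings. SGF3 was at 41.4, 47 and 48.9 FPKM in A306, 35.4, 36.6 and 39.1 FPKM in XH, and 44, 46.7 and 43.7 FPKM in A798, so its XH libraries were below all others, 0.35 log2 below the line (adjusted p = 0.00419). SGF1 was at 48.1, 52.2 and 57 FPKM in A306, 48.6, 49 and 48 FPKM in XH, and 50.9, 53.8 and 49.4 FPKM in A798.

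Genes outside these lists also stood far from the line, with XH outermost. BGIBMGA010889, matched to zonadhesin, was at 8.64, 7.86 and 9.66 FPKM in A306, 137, 126 and 132 FPKM in XH, and 15, 12.4 and 10.6 FPKM in A798. The lipase BGIBMGA014574 was at 0.66, 0.6 and 0.32 FPKM in A306, 41.2, 43.3 and 42.2 FPKM in XH, and 7.69, 7.64 and 7.43 FPKM in A798. Both lay more than 3 log2 above the line, and neither slope was called. On the other side, the carboxylesterase AE13, of a family that breaks down esters and pesticides, was at 15.1, 14.3 and 13.9 FPKM in A306, 0.38, 0.6 and 0.23 FPKM in XH, and 14.8, 13.8 and 15.1 FPKM in A798. Its ends were level, with the A306 mean 0.992 times the A798 mean, and XH was 3.54 ± 0.10 log2 below the line (adjusted p = 9.88e-08). BMDJ-1BETA, of the DJ-1 family that protects against oxidative stress, was at 112, 126 and 123 FPKM in A306, 43.7, 43.9 and 40.9 FPKM in XH, and 76.5, 88.1 and 79.2 FPKM in A798. GSTD3, a glutathione transferase that conjugates toxins, was also lowest in XH, at 14.8, 18.2 and 18.5 FPKM in A306, 6.35, 5.06 and 5.85 FPKM in XH, and 8.02, 8.84 and 6.04 FPKM in A798, where replicate 3 lay below the highest XH library as deposited.

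**Figure D4:**
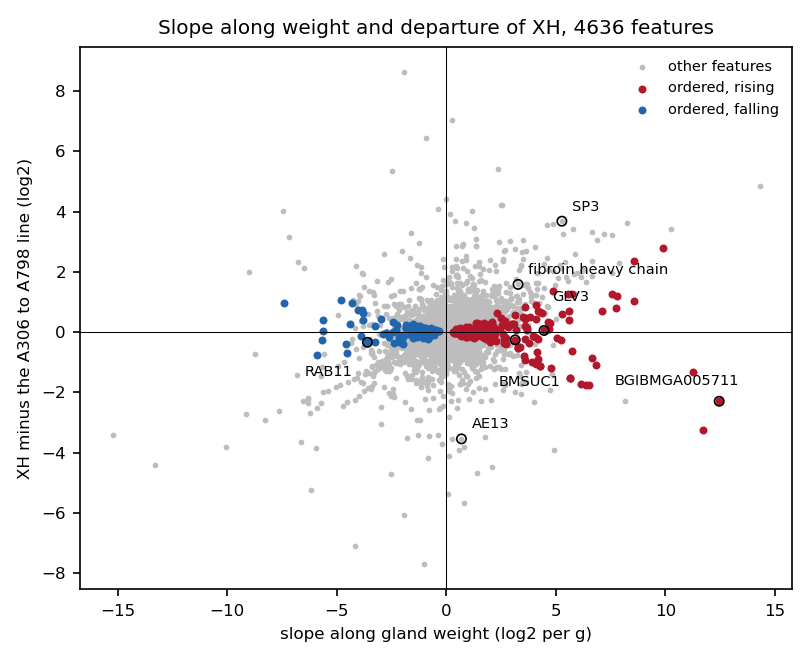
Slope along gland weight (horizontal axis, log2 per g) against the departure of XH from the line between A306 and A798 (vertical axis, log2) for the 4636 tested features. Red and blue points are the 175 rising and 126 falling ordered features, and circled points name single genes. SP3 and fibroin heavy chain lie above the horizontal axis, and AE13 and the ordered gene BGIBMGA005711 lie below it.

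Where XH stood between the ends varied widely among the ordered features. On the centred log2 scale, with A306 at 0% and A798 at 100%, XH lay at a median of 52.3% in the 175 rising features (quartiles 32.3% and 66.2%) and 45.5% in the 126 falling ones (31.9% and 61.9%). Its gland weight lay at 48.2%. With the range cut in 3 equal parts, XH fell in the middle part in 87 rising and 71 falling features, in the part next to A306 in 46 rising and 34 falling ones, and in the part next to A798 in 42 rising and 21 falling ones. Departure from the line was called in 62 rising features, 34 of them with XH above the line, and in 19 falling ones, 8 of them above. The ordered features thus included some that were close to linear in weight, such as HSP90 and TEF2, and others in which 1 strain stood away from the other 2, such as BGIBMGA005711.

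**Figure D5:**
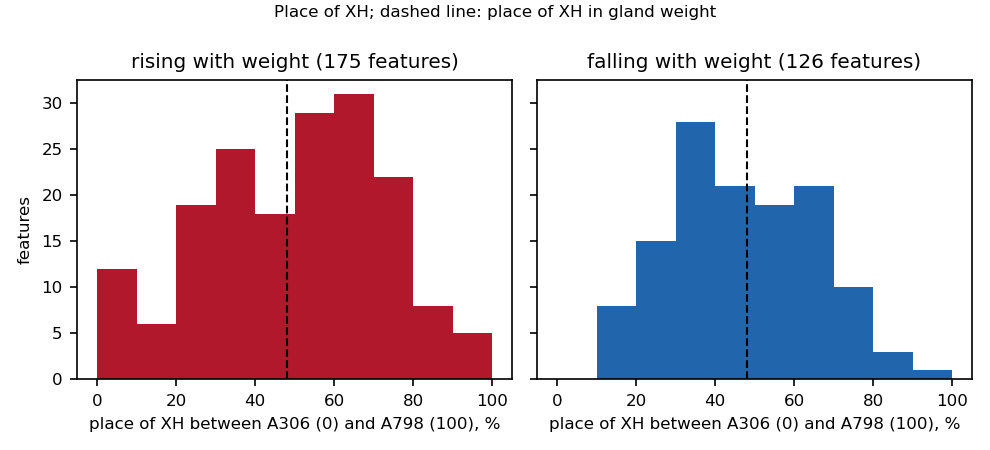
Number of ordered features (vertical axis) by the place of XH between A306 (0%) and A798 (100%) on the centred log2 scale, for features rising (left) and falling (right) with gland weight. The dashed line marks the place of XH in gland weight, 48.2%; the medians are 52.3% and 45.5%, and both spread over most of the range.

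Within strains, gland weight gave no called slope. With strain as a term in limma, 0 of 4636 features (0%) passed, the smallest adjusted p was 0.721, and 204 features had an unadjusted p below 0.05. Among the 301 ordered features, 133 had a within-strain slope of the same sign as the slope over all libraries. Weights within a strain spanned little of the axis, so a slope of the size seen between strains could go undetected there.

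Of the named genes, 2 lay just inside the limit of separation and 2 just outside it. RPL32, the narrowest named rising gene, was at 3988, 3847 and 3646 FPKM in A306, 3776, 3711 and 3765 FPKM in XH, and 3639, 3446 and 3515 FPKM in A798, so it was ordered upward only after centring, with a gap of 0.0057 log2. BMO.5081, the narrowest falling one, was at 42.4, 40.3 and 44.4 FPKM in A306, 34.2, 37.3 and 37.6 FPKM in XH, and 29.5, 26.7 and 22.1 FPKM in A798, with a slope p of 0.0501 after adjustment. Just outside were the heme synthesis enzyme BMO.3127 on the rising side and the co-chaperone DnaJ-16 (BGIBMGA011435) on the falling side, whose strains overlapped by 0.0070 and 0.0227 log2.

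Levels of 0 need separate reading. In 30 rising and 1 falling ordered feature a strain was listed at 0 in all its libraries, and in 9 of the rising ones 2 strains were. The centring adds a library's own offset to a 0, so 2 strains at 0 can appear ordered. The histone gene H4-L was such a case, at 0 in all A306 and all XH libraries and at 8.06, 2.6 and 1.1 FPKM in A798, and it was ordered in 1 of 7 scalings. When the medians were made equal by a factor on FPKM instead, 148 of the 175 rising and 112 of the 126 falling features kept their order. Among the most abundant ordered features without a name, BGIBMGA001800 was at 6123, 6094 and 6003 FPKM in A306, 6386, 6560 and 6700 FPKM in XH, and 6119, 6475 and 6030 FPKM in A798, overlapping as deposited, while BGIBMGA011901 was at 1974, 1980 and 2028 FPKM in A306, 1339, 1346 and 1377 FPKM in XH, and 1130, 1156 and 1063 FPKM in A798.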

How the data were processed

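Per the labels' protocols, total RNA of silk glands was extracted with TRIzol. Read processing used StringTie 1.3.3b, fastp 0.19.5 and DESeq2 1.24.0, per the submitters' processing notes; for the aligner and the genome build the sources used here give no name. The authors deposited FPKM for 15745 features, whose depth is unknown; a second table of 5 genes holds the same values. Strain means in the tables were not used, and no genome positions or sequences are given. From the FPKM, features with at least 1 FPKM in at least 3 libraries (4636) were put on the log2(FPKM + 1) scale, which understates changes of low genes, and centred on the library median. limma 3.58.1 (R 4.3.3) fitted the slope on mean weight (7 residual degrees of freedom) and, on strain means, the 2 steps and the departure of XH from the line, with empirical Bayes variances and Benjamini-Hochberg adjustment over all 4636 features (two-sided, 0.05). A fit with strain as a term gave within-strain slopes (5 residual degrees of freedom). The procedure was also run on simulated data with independent normal noise and no shifts between libraries, unlike the deposited values. No result given here rests on that run. Genes with a mean of at least 5 FPKM in the highest strain and no strain at 0 were named by a rule: the 10 steepest slopes in each direction among ordered genes, the 5 largest departures with XH highest and lowest, up to 3 ordered members of each list (or its most abundant one), the silk genes, the 5 genes of the second table, the most abundant unnamed and the narrowest ordered genes; strains at 0 gave up to 3 more in each direction. Acid lipase-1, isocitrate dehydrogenase, the chaperonin alpha subunit, lebocin, lysozyme and other list members outside the rule were chosen after their values were seen. The 32 gene lists, the members and the rule were chosen with earlier results of these data known. Alternatives were 7 scalings, another pseudocount, other filters, either weight alone, log2 weight, strain rank, no intensity trend, a replicate block and leaving out each library. One gene that the rule names is not reported here.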

Additional observations from a re-analysis of the deposited data

How the results depend on the processing

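On the deposited values, with no further scaling of the libraries, 242 slopes were called higher and 1211 lower with weight, 66 features were ordered rising and 417 falling, XH was lowest in 185, and both steps were called in 231. Setting equal the summed FPKM of all but the 20 most abundant features gave 680 lower slopes, 92 rising and 222 falling features and 201 with XH lowest; under quantile normalization 115 were rising. With no filter on low values the counts were 259 higher, 828 lower, 81 rising, 383 falling and 708 with XH lowest. The causes of these shifts were not tested. The other alternatives kept each of these counts within 1.5 times, except the replicate block and leaving out libraries.

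Same-numbered libraries of different strains deviated together at r of 0.00039 to 0.063 across genes, and 8 of 9 libraries correlated best with their own number. The labels do not say what a number marks, so the main fit had no replicate block. Whether the numbers mark a shared animal, batch or day is unknown. With the replicate block, 258 slopes were called higher and 185 lower, 1324 departures, 118 double steps and 1955 strain differences. Leaving out single libraries gave 273 to 422 higher and 183 to 399 lower slopes, 194 to 225 rising and 139 to 168 falling features, 295 to 321 with XH highest and 357 to 388 with XH lowest, 1178 to 1395 departures, 100 to 119 double steps, 1864 to 1942 strain differences and 0 within-strain slopes. Fewer libraries per strain make full separation easier by construction.

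The 20 named genes with the steepest ordered slopes kept direction and call under all 26 alternatives. The following slopes, in log2 per g, changed sign. As deposited, they were -0.19 for RPL32, -0.36 for BMO.3127, -0.11 for the asparagine synthetase BGIBMGA011521, -0.45 for P25, -0.42 for FIBL, -0.037 for JAFRAC1, -0.031 for SGF1, -0.10 for the histone BGIBMGA005550 and -0.17 for ATG8. Without a filter they were -0.16 for RPL32, -0.32 for BMO.3127, -0.078 for BGIBMGA011521, -0.42 for P25, -0.39 for FIBL, -0.0036 for JAFRAC1, -0.066 for BGIBMGA005550 and -0.13 for ATG8. P25 and FIBL had -0.19 and -0.52 under quantile normalization, and -0.13 and -0.095 with the sum outside the top 20 equal, where BMO.3127 had -0.031. The slope of ATP synthase alpha (BGIBMGA001853), below 0 by less than 0.01 as reported, turned to 0.10 with the upper quartile, 0.11 with the trimmed mean, 0.11 with the factor, 0.094 with a pseudocount of 0.1, 0.011 with at least 5 FPKM, 0.040 without features at 0 in a strain, 0.019 with the second weight and 0.00012 with the replicate block. Leaving out single libraries gave -0.057 to 0.27 for P25, -0.00085 to 0.28 for FIBL, -0.038 to 0.036 for BGIBMGA001853, -0.73 to 0.020 for BMDJ-1BETA and -0.35 to 1.77 for AE13. One scaling, the equal medians by a factor, was chosen after seeing the data. FPKM give no depth, so the precision of low levels is unknown, and 5418 features were at 0 in every library.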

Other observations

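Of the 4 tested ecdysone genes, none was ordered along weight, and 1 slope was called higher and 2 lower, against 17.3% of all features with a called slope. XH departed from the line in all 4, against 31.4% of all features, with 2 above it and 2 below it. These counts include USP, which passed the filter on low values only through A306. With XH and A798 both at 0, XH lies below the line of USP by construction. Ecdysone oxidase (BGIBMGA000158), which inactivates ecdysteroids, was at 5644, 5516 and 5467 FPKM in A306, 2366, 2326 and 2422 FPKM in XH, and 2217, 2293 and 2138 FPKM in A798. XH stood 0.66 ± 0.02 log2 below the line, although the slope was called (adjusted p = 0.0328). The P450 CYP306A1, a hydroxylase of ecdysteroid synthesis, was at 0.54, 0.46 and 0.3 FPKM in A306, 8.41, 7.93 and 7.83 FPKM in XH, and 7.1, 5.54 and 6.6 FPKM in A798. In both genes A306 stood apart from the other strains. USP, the partner of the ecdysone receptor, was listed at 14.4, 12.7 and 9.7 FPKM in A306 and at 0 in every XH and A798 library; a 0 in these files can be a failed estimate. The juvenile hormone binding protein AN0895 was at 16, 12.9 and 16.8 FPKM in A306, 34, 36.3 and 35.8 FPKM in XH, and 5.33, 7.06 and 7.37 FPKM in A798.

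The odorant binding protein BGIBMGA002629, of the family that carries small hydrophobic molecules, was lowest in XH, at 438, 448 and 413 FPKM in A306, 317, 301 and 348 FPKM in XH, and 681, 663 and 696 FPKM in A798. Actin A1, the muscle-type actin, was ordered falling in 2 of 7 scalings, at 69.2, 76.7 and 72.6 FPKM in A306, 59, 63.2 and 63.9 FPKM in XH, and 39, 40.7 and 35 FPKM in A798. The other tested muscle genes, MLC-2 and muscular protein 20, had no called slope. Aminoacyl-tRNA synthetases, redox defence, oxidative phosphorylation, autophagy and apoptosis, detoxification and growth signalling had 4, 12, 14, 13, 10 and 10 tested members, and 0 of these were ordered along weight, against 6.49% of all features. Their called slopes, by limma, were 2 lower for the synthetases, 0 for redox defence, 2 lower for oxidative phosphorylation, 1 lower for autophagy and apoptosis, 3 higher and 3 lower for detoxification, and 1 lower for growth signalling, where 17.3% of all features had a called slope. None of the 24 tested ENSRNA models was separated by strain or had a called slope.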
